A study of Mus musculus with 6 samples.

Results

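The SR splicing factor genes are described here by the RNA polymerase II (Pol II) bound to their chromatin in KO and WT mouse neural precursor cells (NPCs). They were taken by gene symbol, as Srsf1, Srsf2, Srsf3, Srsf4, Srsf5, Srsf6, Srsf7, Srsf9, Srsf10 and Srsf11, and all 10 were found among the 12107 genes measured. Each gene had 3 measured regions, so the family held 30 of 36321 regions. The promoter (TSS region) ran from 400 bases upstream to 100 bases downstream of the transcription start site (TSS). From that point the gene body ran up to 100 bases before the transcription end site (TES), and the TES region went on from there to 2000 bases past the TES.

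Chromatin fragments bound by Pol II were pulled down and sequenced (ChIP-seq). The antibody recognised the N-terminal end of POLR2A (RPB1), the largest Pol II subunit, and so takes up Pol II in any phosphorylation state. The libraries came from 3 KO and 3 WT samples in 3 biological replicate pairs. KO NPCs carried Armc5 deleted on both alleles and WT NPCs carried it intact. ARMC5 is the substrate-binding part of a ubiquitin ligase for POLR2A, and the question was where Pol II occupancy differs when that ligase is missing. Both genotypes were grown in the same way, as EGF-fed neurospheres of the second passage from the ganglionic eminences of e13.5 embryos (strain label 129 sv X CD1), so they stand for cultured precursors and not for the intact neural tube. The study's methods name C57BL/6 and CD1 as the parent strains, so the background is uncertain. The deletion was present throughout development, and the sources used here do not give how many embryos went into each culture. The Armc5 gene itself was not analysed here.

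SR proteins are RNA-binding proteins that carry a tail rich in arginine and serine. They bind exons, help the U1 and U2 snRNPs to find the splice sites while Pol II is still transcribing, and several of them escort mature mRNA to the cytoplasm. Their own genes are tightly controlled: most hold a highly conserved poison exon, whose inclusion sends the transcript to nonsense-mediated decay, and many SR proteins promote that inclusion in their own mRNA. Phosphorylation of the tail by SRPK and CLK kinases sets where the proteins reside and when they act.

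The libraries held 16056262 to 25199455 counted reads in KO NPCs and 14528870 to 23808344 in WT NPCs. Promoters took 6.88% to 12.2% of the reads in KO NPCs and 6.04% to 11.2% in WT NPCs, and the lowest share of each genotype was in pair 3. The SR gene regions held 60 to 2420 reads in a library. Levels are given in CPM, counts scaled to the size of the library, with TMM, a trimmed mean of ratios between libraries, as the scaling, and log2 fold changes as KO over WT ± SE. No input or spike-in was used here, so a value is a share of the counted reads and not an absolute amount of Pol II. Of 8 neural precursor markers, 7 were in the table, with gene body signal per kilobase in WT NPCs above that of 68.4% (Dlx2) to 99.5% (Fabp7) of genes. The 4 neuron markers measured stood above 7.21% to 78.3% of genes, and of the oligodendrocyte lineage Olig2, which ventral precursors also express, stood above 99.8%, Sox10 above 87.1% and Mbp above 16.2%. The astrocyte marker Slc1a3, shared with radial glia, stood above 86.5% and the endothelial marker Kdr above 3.67%. The 5 microglia and blood markers and the 4 mesenchymal markers had no measured region. A change in the make-up of the cultures and a change in Pol II per cell cannot be told apart in such bulk samples.

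The promoters of 6 members are shown because they carry the highest SR signal or the differences described below: the 4 SR promoters that hold the TATA box letters near the start site, then Srsf5 and Srsf1, which lack them. Each line gives 120 bases on the gene's strand, from 100 bases before the RefSeq start site to 20 bases from it onward (GRCm38.p6). Capitals mark TATAA, or TTATA where the match lies on the opposite strand.
Srsf7, chr17:80207286-80207405, minus strand: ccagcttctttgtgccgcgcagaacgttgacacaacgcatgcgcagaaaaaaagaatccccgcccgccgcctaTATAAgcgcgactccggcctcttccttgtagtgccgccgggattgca
Srsf2, chr11:116853075-116853194, minus strand: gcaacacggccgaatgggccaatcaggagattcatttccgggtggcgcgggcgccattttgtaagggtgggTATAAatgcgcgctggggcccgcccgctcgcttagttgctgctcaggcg
Srsf3, chr17:29032560-29032679, plus strand: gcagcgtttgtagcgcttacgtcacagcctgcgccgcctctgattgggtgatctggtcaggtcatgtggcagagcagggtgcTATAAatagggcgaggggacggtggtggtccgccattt
Srsf6, chr2:162931408-162931527, plus strand: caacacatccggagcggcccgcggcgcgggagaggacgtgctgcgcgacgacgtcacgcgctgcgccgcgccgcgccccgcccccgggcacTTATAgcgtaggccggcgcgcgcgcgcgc
Srsf5, chr12:80945399-80945518, plus strand: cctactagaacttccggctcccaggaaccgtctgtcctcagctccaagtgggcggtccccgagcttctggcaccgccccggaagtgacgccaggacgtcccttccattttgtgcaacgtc
Srsf1, chr11:88047273-88047392, plus strand: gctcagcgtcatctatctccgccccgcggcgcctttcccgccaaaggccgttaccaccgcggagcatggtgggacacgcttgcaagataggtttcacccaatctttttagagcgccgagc

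All 10 members matched a RefSeq promoter by symbol. The letters TATAA, searched on both strands of the 120 bases, were in 4 of the 10 SR promoters and in 4.42% of the 9505 promoters of measured genes that matched. On the gene's own strand they were in 3, those of Srsf2, Srsf3 and Srsf7, and in 3.41% of all. They began 29 bases before the RefSeq start site in Srsf2, 27 in Srsf7 and 18 in Srsf3. In Srsf3 that site lay 32 bases downstream of the GENCODE start, from which gene regions were approximated here. Its TATAA was therefore past the GENCODE start. The 2 starts were 324 bases apart in Srsf10, 33 in Srsf11 and at most 20 in the other members. The GC box letters GGGCGG were in 9 SR promoters and in 54.2% of all, the CCAAT box letters in 3 and in 25.2%, and TGACG, the core of cyclic AMP response elements, in 6 and in 21.0%, each on both strands of the same 120 bases. The 300 bases around the SR start sites had a median GC content of 68.7%, against 61.7% for all promoters. None of these motifs contains another, and a match is one of letters only.

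Of the 10 SR promoters, 6 were among the most heavily occupied promoters measured. Signal per kilobase at the promoter was above that of 99.7% to 99.9% of genes in WT NPCs for Srsf7, Srsf3, Srsf2 and Srsf6. These 4 promoters hold TATAA when both strands are searched, that of Srsf6 on the opposite strand only. A link between the letters and the signal was not tested. Srsf7 led with 70.5 ± 27.9 CPM per kilobase in KO NPCs and 76.9 ± 24.0 in WT NPCs (SD, n = 3 each). Srsf4 and Srsf5 stood above 99.1% and 98.9% of genes and Srsf9 above 90.8%. Srsf10 was above 78.7%, and Srsf1 and Srsf11 were nearer the middle, above 63.2% and 58.5%. Every neighbouring pair in this order overlapped between libraries, in KO NPCs and in WT NPCs.

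Gene bodies were ordered otherwise. Srsf2 had the densest body in either genotype, with 12.1 ± 2.59 CPM per kilobase in KO NPCs and 8.50 ± 1.94 in WT NPCs, and its 3 KO values lay apart from those of the next gene, Srsf5, with 8.73 ± 1.39 in KO NPCs. Srsf11 and Srsf4, the longest of the 10, were lowest, with 2.42 ± 0.44 and 2.27 ± 0.06 CPM per kilobase in KO NPCs and 2.36 ± 0.51 and 2.22 ± 0.15 in WT NPCs. In WT NPCs the 7 densest bodies overlapped each with its neighbour, and Srsf10 was the lowest of them, apart from Srsf9 below.

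Between KO and WT NPCs, the family's differences lay mainly in gene bodies. All 10 SR gene bodies had a log2 fold change above 0 (8 with the scaling on gene bodies of lowest signal and 9 without pair 3), against 5488 of all 12107. Their median was 0.19, against -0.01 over all gene bodies. The median was 0.16, 0.08 and 0.41 in pairs 1, 2 and 3. Of the 30 regions, 1 passed an adjusted p of 0.1 in the limma-voom fit over all regions, the gene body of Srsf7, and 0.135% of all 36321 regions passed. Among gene bodies alone, 1 of 10 SR genes was called higher in KO NPCs and 0.173% of all gene bodies were. At an unadjusted p under 0.05, 4 SR gene bodies were higher (Srsf7, Srsf2, Srsf6 and Srsf5), against 4.82% of all. This count was 2 without KO 3 or without WT 3, 6 without KO 1 or without WT 1, and 1 without the block. With the pair as a block, leaving out a library also takes its partner out of the comparison. Such a fit compares the same pairs as the fit without that pair, and is not a separate check. In 6 SR gene bodies KO exceeded WT in all 3 pairs, which held for 13.7% of all gene bodies, and in 2, Srsf7 and Srsf2, the KO and WT values did not overlap, which held for 1.5% with KO above WT. The summed signal of the 10 bodies was 509 ± 60.1 CPM in KO NPCs and 441 ± 63.7 CPM in WT NPCs (SD, n = 3 each).

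**Figure D1:**
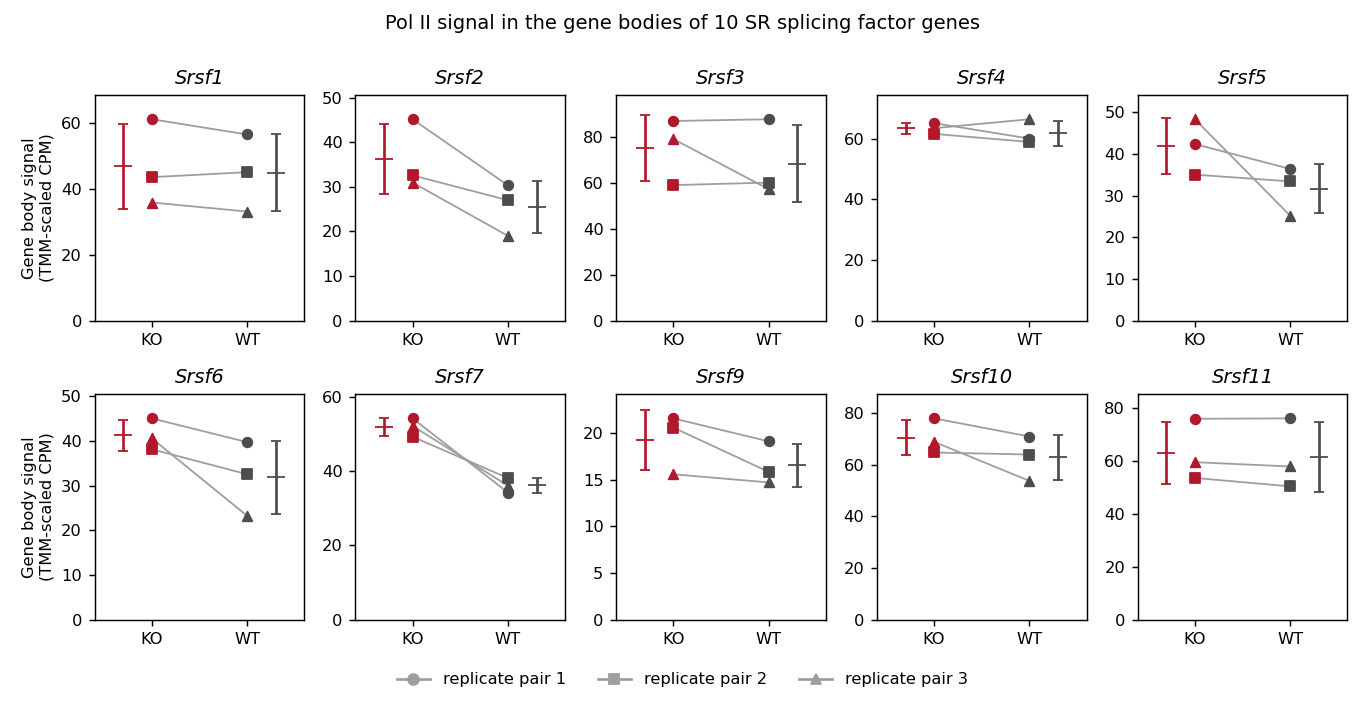
Pol II signal in the gene bodies of the 10 SR genes, in TMM-scaled CPM from 0, with KO NPCs left and WT NPCs right. Symbols joined by a line are a replicate pair, and the bars at the sides are means ± SD (n = 3). The 3 KO values of Srsf7 (49.3 to 54.2) and of Srsf2 (30.9 to 45.1) lie above the WT values (34.2 to 38.1 and 19.0 to 30.3). In every other gene the KO and WT values overlap.

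Among SR proteins with a single RNA recognition motif, Srsf7 encodes 9G8, which also carries a zinc knuckle and takes part in mRNA export. Its gene body (7027 bases, minus strand of chromosome 17) had 54.2, 49.3 and 52.2 CPM in KO NPCs 1 to 3, against 34.2, 38.1 and 36.1 CPM in WT NPCs 1 to 3. The lowest KO library was above the highest WT library. Srsf7 rose by a log2 fold change of 0.52 ± 0.08, a 1.43-fold difference with a 95% interval of 1.26 to 1.63 (adjusted p = 0.064, limma-voom, higher in 3 of 3 pairs). The call was not made without the replicate block, where the estimate was the same at 0.52 and the adjusted p was 1, nor with the scaling on gene bodies of lowest signal (adjusted p = 0.134), in a fit of each region type by itself (0.196) or without pair 2 (0.162).

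Its promoter, the one with the highest SR signal, had no such difference: 51.1, 29.9 and 24.8 CPM in KO NPCs and 51.6, 35.7 and 28.1 CPM in WT NPCs, a log2 fold change of -0.13 ± 0.09 (95% interval -0.31 to 0.06). The TES region gave 0.22 ± 0.16 (adjusted p = 0.757). The gene Ttc39d starts on the other strand within the promoter window and covers 248 of its bases.

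Srsf2, also with a single recognition motif, encodes SC35, a marker protein of nuclear speckles. Its gene body (2993 bases) had 45.1, 32.6 and 30.9 CPM in KO NPCs 1 to 3, against 30.3, 27.0 and 19.0 CPM in WT NPCs 1 to 3. The groups did not overlap, though KO 3 exceeded WT 1 by little. The log2 fold change was 0.49 ± 0.10, with KO higher in 3 of 3 pairs, and it missed the threshold (adjusted p = 0.122, limma-voom). DESeq2 called it (adjusted p = 0.0956), as did the fit without X- and Y-linked genes (0.0663). Leaving out a library takes its pair out of the comparison as well. The fits without pair 1 or pair 3, or without a library of either, called it. The fits without pair 2, KO 2 or WT 2 gave 0.62, 0.60 and 0.61 (adjusted p = 0.227, 0.0628 and 0.130). Of these only the fit without KO 2 called it. The promoter differed by -0.04 ± 0.08 and the TES region by 0.04 ± 0.13. Mettl23 lies on the other strand across all 3 windows and Mfsd11 across the promoter and 555 bases of the body, and reads from ChIP cannot be assigned to a strand, so part of this signal can belong to those genes.

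Srsf3 encodes SRp20, the smallest SR protein, which takes part in mRNA export. Its gene body had 87.1, 59.1 and 79.2 CPM in KO NPCs 1 to 3, against 87.9, 60.2 and 57.4 CPM in WT NPCs 1 to 3. Only pair 3 differed visibly, and the log2 fold change was 0.11 ± 0.09 (adjusted p = 0.791). At the TES region Srsf3 had 24.8, 17.3 and 27.3 CPM in KO NPCs, against 33.2, 25.05 and 27.5 CPM in WT NPCs. This was the one SR region at an unadjusted p under 0.05 with KO lower (log2 fold change -0.35 ± 0.11, adjusted p = 0.401), with KO below WT in 3 of 3 pairs though by 0.01 only in pair 3. Without KO 3 or without WT 3 it was called, at -0.47 each (adjusted p = 0.0762 and 0.0750). Without pair 3, which compares the same pairs, it was -0.45 and not called (adjusted p = 0.105).

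Among the SR proteins with a pair of recognition motifs, Srsf6 encodes SRp55 and Srsf5 encodes SRp40. The Srsf6 gene body had 45.0, 38.1 and 40.6 CPM in KO NPCs 1 to 3, against 39.7, 32.5 and 23.2 CPM in WT NPCs 1 to 3. The Srsf5 gene body had 42.4, 35.1 and 48.4 CPM in KO NPCs 1 to 3, against 36.4, 33.4 and 25.2 CPM in WT NPCs 1 to 3. In both genes every pair was higher in KO, and pair 3 differed most, with WT 3 the lowest library. The log2 fold changes were 0.33 ± 0.11 for Srsf6 (adjusted p = 0.42) and 0.34 ± 0.13 for Srsf5 (adjusted p = 0.50). Without pair 3 they were 0.22 and 0.16 (adjusted p = 0.617 and 0.792). The fits without pair 1, KO 1 or WT 1 compare the same pairs. They gave 0.45, 0.45 and 0.44 for Srsf6, which was called in each (adjusted p = 0.0798, 0.0143 and 0.0150). Srsf5 had 0.42 in each and was called without KO 1 or WT 1 (0.0288 and 0.0308), but not without pair 1 (0.197). No other annotated gene overlaps the windows of Srsf6, while the windows of each other member overlap some annotated gene. On the other strand Gm20337 covers 293 bases of the Srsf5 promoter, Gm16196 341 of the Srsf3 promoter and Lrrc40 378 of the Srsf11 promoter. Also on the other strand, Gatc covers 1842 bases of the Srsf9 TES region and Pnrc2 991 of the Srsf10 TES region. A930004J17Rik covers 4610 bases of the Srsf4 body on the same strand.

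Srsf9, which encodes SRp30c with a short arginine-serine tail, had 21.6, 20.6 and 15.6 CPM over its gene body in KO NPCs 1 to 3, against 19.1, 15.8 and 14.7 CPM in WT NPCs 1 to 3. The groups overlapped, and the log2 fold change of 0.23 ± 0.11 did not pass (adjusted p = 0.621), with KO higher in 3 of 3 pairs.

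Srsf1 encodes ASF/SF2, a splicing factor that acts as an oncoprotein when overproduced. Its gene body had 61.2, 43.6 and 35.9 CPM in KO NPCs 1 to 3, against 56.6, 45.1 and 33.1 CPM in WT NPCs 1 to 3. The libraries overlapped throughout and the log2 fold change was 0.05 ± 0.08 (95% interval -0.11 to 0.22). Srsf1 was instead the one SR promoter at an unadjusted p under 0.05, with 11.3, 12.4 and 6.02 CPM in KO NPCs 1 to 3, against 7.47, 9.73 and 5.52 CPM in WT NPCs 1 to 3. KO was higher in 3 of 3 pairs, the groups overlapped and the log2 fold change of 0.40 ± 0.14 did not pass (adjusted p = 0.481). The antisense gene Gm11508 covers the whole promoter window.

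Srsf4, which encodes SRp75 with the longest tail of the SR proteins, had 65.2, 61.6 and 63.5 CPM over its gene body in KO NPCs 1 to 3, against 60.1, 59.0 and 66.5 CPM in WT NPCs 1 to 3. The log2 fold change was 0.05 ± 0.07 (95% interval -0.10 to 0.20), and pair 3 was lower in KO. Its promoter had the lowest estimate of the 10, -0.17 ± 0.10 (adjusted p = 0.701).

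Srsf10 encodes SRp38, which represses splicing when it is dephosphorylated in mitosis and after heat shock. Its gene body had 77.9, 64.7 and 68.8 CPM in KO NPCs 1 to 3, against 70.9, 63.9 and 53.7 CPM in WT NPCs 1 to 3. KO was higher in 3 of 3 pairs, by 0.02 only in pair 2, and the log2 fold change was 0.15 ± 0.08 (adjusted p = 0.646). Srsf11, which encodes an SR-related protein of the speckles known for its part in neuronal microexon splicing, had 75.8, 53.5 and 59.5 CPM in KO NPCs 1 to 3, against 76.0, 50.3 and 57.8 CPM in WT NPCs 1 to 3. Its log2 fold change of 0.04 ± 0.07 was the smallest of the 10 gene bodies (95% interval -0.11 to 0.19).

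At the promoters, 6638 of all 12107 genes had a log2 fold change above 0. Of the 10 SR genes 7 were below 0 (8 with DESeq2, the deposited log2 values, the lowest-signal scaling or no block, and 6 to 9 with libraries left out), with a median of -0.08, against 0.03 over all promoters. The median was -0.02 without pair 2 and -0.17 without KO 1 or without WT 1, where that over all promoters was -0.02. None was called, and 0.173% of all promoters were. At an unadjusted p under 0.05 the count was 1 of 10 in the higher direction, Srsf1, against 7.55% of all promoters. The 10 promoters summed to 220 ± 74.5 CPM in KO NPCs and 232 ± 61.5 CPM in WT NPCs (SD, n = 3 each). At the TES regions the median was 0.04, against -0.08 over all, and it turned to -0.01 without KO 3, without WT 3 or with the lowest-signal scaling. No SR TES region was called, against 0.0248% of all, and 1 was lower at an unadjusted p under 0.05, against 4.84%. The TES regions summed to 130 ± 25.8 CPM in KO NPCs and 130 ± 28.6 CPM in WT NPCs.

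**Figure D2:**
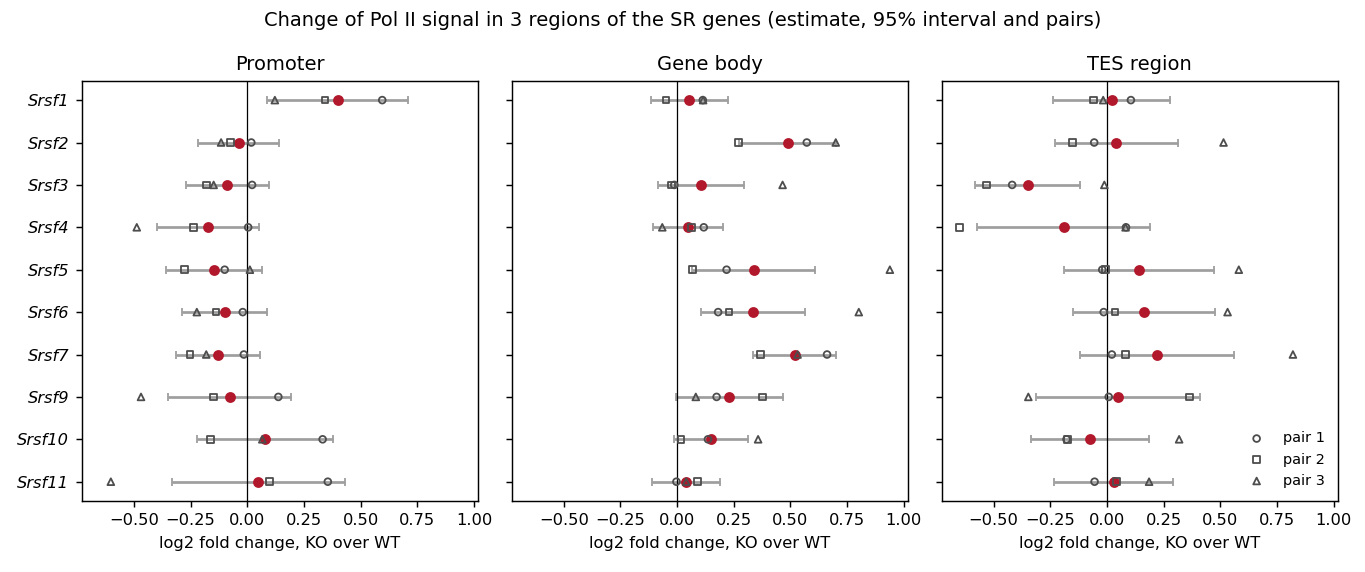
Log2 fold change of Pol II signal, KO over WT, at the promoter, gene body and TES region of each SR gene. Filled points are limma-voom estimates with 95% intervals and open symbols are the 3 replicate pairs. The gene body estimates lie between 0.04 and 0.52, and 7 of 10 promoter estimates lie below 0.

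The ratio of promoter reads to gene body reads, an index of promoter-proximal pausing, was tested per gene because it compares regions within a library. The SR genes had lower ratios in KO NPCs for 9 of 10 members, against 5920 of the 12096 genes tested. Their median log2 change was -0.33, against 0.01 over all genes. At an unadjusted p under 0.05, 4 SR ratios were lower, against 3.65% of all, and in 6 the ratio was lower in all 3 pairs, against 14.7%. The 4 were those of Srsf7, Srsf2, Srsf6 and Srsf5, the genes whose bodies were higher at that threshold. Body reads form the denominator, so the ratio is not a separate result for these genes. Without pair 3 the count at an unadjusted p under 0.05 was 1 of 10 and 7 ratios were below 0, and without the block that count was 0. None passed an adjusted p of 0.1 in limma, and 0.0331% of all genes did. Requiring a mean of at least 50 reads in both regions gave 1 call among the members, Srsf7 (adjusted p = 0.0922), with 1.95% of the 9223 genes tested called. The median ratio change of all genes itself moved with gene body length. It was -0.08 at 2500 to 5000 bases, a class with 2 members, and -0.06 at 5000 to 7500 bases, with 4 members. Over 30000 bases, with 0 members, it was 0.05. The part of length in the SR ratios was not tested.

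For Srsf7 the log2 ratio was -0.09, -0.72 and -1.07 in KO NPCs 1 to 3, against 0.59, -0.10 and -0.36 in WT NPCs 1 to 3. The difference was nearly the same in each pair, -0.68, -0.62 and -0.71, although the libraries of a genotype spread more widely than that (log2 change -0.67 ± 0.18, adjusted p = 0.281). Srsf2 had 0.19, -0.10 and -0.51 in KO NPCs 1 to 3, against 0.74, 0.25 and 0.31 in WT NPCs 1 to 3, and the genotypes did not overlap (-0.57 ± 0.20, adjusted p = 0.344).

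Srsf6 had log2 ratios of -0.11, -0.40 and -1.02 in KO NPCs 1 to 3, against 0.09, -0.03 and 0.00 in WT NPCs 1 to 3, again without overlap (-0.53 ± 0.21, adjusted p = 0.395). How many of all genes had ratios without overlap was not counted. Srsf5 had -0.59, -0.68 and -1.57 in KO NPCs 1 to 3, against -0.27, -0.33 and -0.65 in WT NPCs 1 to 3 (-0.53 ± 0.19, adjusted p = 0.367), with KO 1 above WT 3. In both the difference was widest in pair 3. Srsf1 was the one member with a change above 0, 0.30 ± 0.18 (adjusted p = 0.602). Across pairs 1, 2 and 3 the median change over the SR genes was -0.08, -0.32 and -0.63, against 0.10, -0.02 and -0.08 over all genes, so that its size moved with the pair. Pair 3 was also the pair with the lowest promoter share, and the part of that share in the result was not tested.

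**Figure D3:**
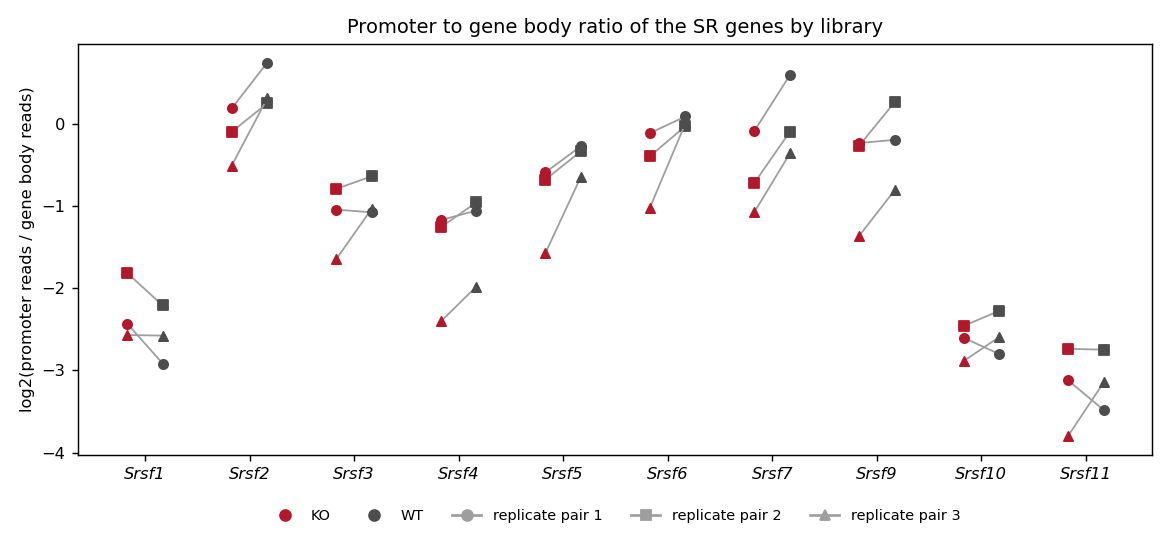
Log2 ratio of promoter reads to gene body reads of each SR gene, KO libraries left and WT libraries right, joined by replicate pair. The KO symbol lies below the WT symbol in every pair for Srsf2, Srsf4, Srsf5, Srsf6, Srsf7 and Srsf9, and Srsf1, Srsf10 and Srsf11 have the lowest ratios.

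The ratio of TES reads to gene body reads was below 0 in change for 9 of 10 SR genes, against 7747 of the 12076 genes tested. The SR median was -0.21, against -0.08 over all genes. None was called, against 0.00828% of all, and 2 were lower at an unadjusted p under 0.05, against 5.84%. These were Srsf3 (log2 change -0.46 ± 0.17, adjusted p = 0.613) and Srsf2 (-0.41 ± 0.18, adjusted p = 0.677). Srsf3 had log2 ratios of -1.81, -1.77 and -1.53 in KO NPCs 1 to 3, against -1.40, -1.26 and -1.06 in WT NPCs 1 to 3, and the genotypes did not overlap. The share of all genes without such overlap was not counted. Srsf2 had -0.88, -1.29 and -0.66 in KO NPCs 1 to 3, against -0.25, -0.87 and -0.48 in WT NPCs 1 to 3, with overlap.

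The larger gene body differences were in the shorter genes. Over the 10 members Spearman's rho between body length and log2 fold change was -0.73, and over 12060 genes with a length it was -0.30. Both are descriptions across genes that share libraries. The median of all gene bodies of 2500 to 5000 bases was 0.07, and Srsf2 and Srsf5 in this class had 0.49 and 0.34. In the class of 5000 to 7500 bases the median was 0.05, and Srsf7, Srsf6, Srsf9 and Srsf1 had 0.52, 0.33, 0.23 and 0.05. At 10000 to 15000 bases the median was 0.02 and Srsf10 and Srsf3 had 0.15 and 0.11, and at 15000 to 30000 bases it was -0.01 and Srsf4 and Srsf11 had 0.05 and 0.04. Gene length moved with the result both within the family and outside it, and its part in the SR differences was not tested. Promoter changes of the 10 showed no such order (rho 0.02).

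**Figure D4:**
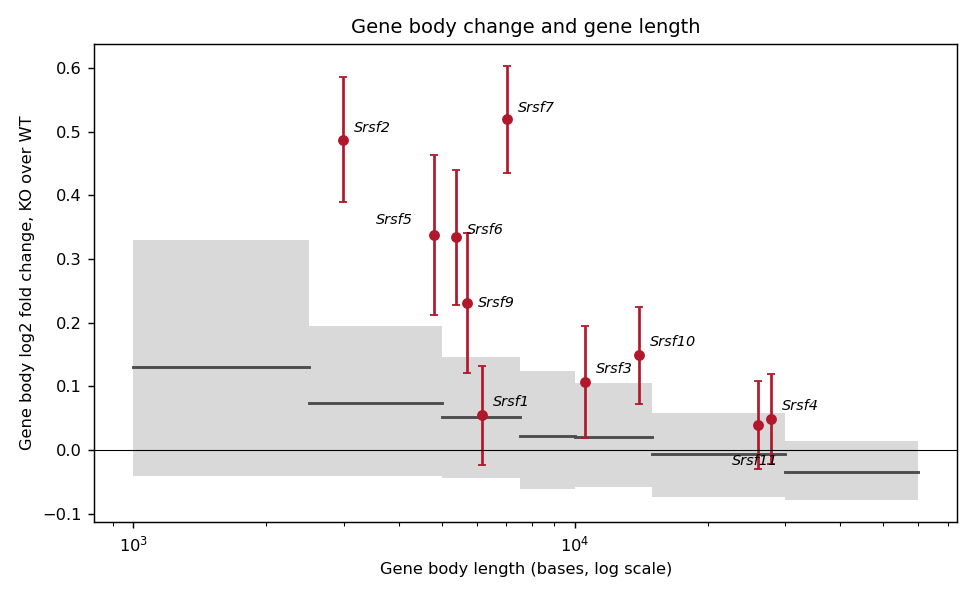
Gene body log2 fold change, KO over WT, against gene body length in bases on a log axis. Red points are the 10 SR genes with their SE, dark lines are medians of all gene bodies in 7 length classes and grey boxes their middle 50%, with the outer classes drawn to 1000 and 60000 bases. Of the 10 members 7 lie above the box of their class, and Srsf1, Srsf4 and Srsf11 lie within it.

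Across the 6 libraries the SR gene bodies did not all vary together. The centred log2 CPM of each gene was set against the mean of the other 9. Pearson's r ran from -0.08 for Srsf4 to 0.98 for Srsf10 (n = 6 libraries), with 0.95 for Srsf2, 0.94 for Srsf6 and 0.53 for Srsf7. The gene bodies of Srsf7 and Srsf4 had close libraries within each genotype, with SDs of 2.49 CPM in KO and 1.96 CPM in WT NPCs for Srsf7 and of 1.78 CPM in KO and 4.05 CPM in WT NPCs for Srsf4. The genes outside the family whose gene body profile was most like the family's mean were Mat2a (r = 0.996), which encodes the enzyme that makes S-adenosylmethionine, the apoptosis effector gene Bax (0.984) and the mitochondrial ribosomal protein gene Mrps26 (0.984). With 6 libraries that share pair and depth, these are descriptions.

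The other splicing gene lists had median gene body changes nearer to 0. Of the SRPK, CLK and related kinases with the importer Tnpo3, 8 of 10 were measured, with a median gene body change of -0.01, and none of their regions was called. Srpk3 had 11.2 ± 1.23 CPM in KO NPCs and 13.2 ± 1.78 CPM in WT NPCs (log2 fold change -0.26 ± 0.13, adjusted p = 0.631), and Clk1, which phosphorylates SR proteins in the nucleus, had 48.8 ± 6.01 and 43.4 ± 10.8 CPM in KO and WT NPCs (0.15 ± 0.09, adjusted p = 0.686). Of the SR-related proteins 18 of 19 were measured, with a median of 0.03 and none called. At an unadjusted p under 0.05, 3 were higher, against 4.82% of all gene bodies. Bclaf1 (0.19 ± 0.07, adjusted p = 0.481) and Tra2a, a splicing activator (0.21 ± 0.08, adjusted p = 0.482), had the smallest p.

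The hnRNP proteins, which often oppose SR proteins at exons, had the median nearest to that of the SR genes. Of 23 genes 20 were measured, and 17 gene bodies lay above 0, against 5488 of all 12107. Their median was 0.12, and none was called. At an unadjusted p under 0.05, 4 were higher, against 4.82% of all gene bodies. In 13 of the 20, KO exceeded WT in all 3 pairs, against 6 of 10 SR gene bodies and 13.7% of all, so a rise in every pair was not particular to the SR genes. KO was below WT in all 3 pairs in 0 of the 20. Hnrnpa0 had 25.5 ± 6.08 CPM in KO NPCs and 18.7 ± 3.99 CPM in WT NPCs, with KO higher in 3 of 3 pairs (0.44 ± 0.10, adjusted p = 0.170), and Hnrnpab had 63.4 ± 13.9 and 52.7 ± 11.6 CPM in KO and WT NPCs (0.24 ± 0.08, adjusted p = 0.479). For the U1 and U2 splice site recognition proteins, 13 of 15 measured, the median was -0.02 with none called. U2af1, which reads the 3′ splice site, gave 0.15 ± 0.09 (adjusted p = 0.701) and Sf3b2, a U2 snRNP subunit, -0.10 ± 0.08 (adjusted p = 0.773).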

How the data were processed

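Per the study's methods and processing notes, the authors trimmed the reads with Trimmomatic, aligned them to GRCm38 (mm10) with BWA, filtered them with Picard, counted them per gene region with HOMER and removed genes without signal in KO. Which gene annotation defined the windows is not stated in these sources. The deposited read counts are whole numbers for promoter, gene body and TES region of each gene. The separate tables of each region hold the same counts (12107 of 12107 rows each). The deposited log2 CPM values, made by the authors with TMM and voom, served as an alternative only.

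Groups and replicate numbers came from the sample titles. The fits hold the pair as a block because the study's methods describe 3 biological replicate pairs. As a check, same-numbered KO and WT samples deviated together from their group means (correlations 0.57 to 0.88 over regions and pairs). Whether the pairs came from separate litters is not stated, so p-values measure the spread between these samples. Libraries of a group differed by 28.6 to 76.9 chi-square per degree of freedom, so none was a copy.

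All 36321 regions were fitted together with limma-voom (R 4.3.3, limma 3.58.1, edgeR 4.0.16 for TMM), two-sided, adjusted after Benjamini-Hochberg over all regions, with a call at adjusted p under 0.1. Ratios were log2 of counts with 0.5 added, where both regions averaged 10 counts or more, tested with limma (trend) with the block. The median SE of the SR gene bodies was 0.09 on the log2 scale. Alternatives were the fit without block, edgeR's quasi-likelihood test, DESeq2 1.42.0, other scalings, filters and values, and leaving out libraries. With the block, a fit without a library compares the same pairs as the fit without its pair. Scripts were tested on simulated data.

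Gene lengths, overlaps and regions were approximated from GENCODE vM21 on GRCm38, and promoter sequences came from RefSeq. The members and lists were chosen with earlier results of these data known. The text names all members, values in every library for each gene body and for regions called or at an unadjusted p under 0.05, of each pathway list the called genes or else the 2 gene bodies of smallest p, and the 3 genes most alike in profile. Markers of neurons, astrocytes, the oligodendrocyte lineage, endothelium, microglia and blood and mesenchyme were looked up as well: 4 of 5, 1 of 4, 3 of 5, 1 of 4, 0 of 5 and 0 of 4 were measured and no region of any marker list was called.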

Additional observations from a re-analysis of the deposited data

How the results depend on the processing

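Of the 30 SR regions, 1 was called. The count was 0 without the replicate block (where 0 of all regions were called, 127 of them at an unadjusted p under 0.05), 2 with DESeq2, 0 with the scaling on gene bodies of lowest signal, 0 with each region type fitted separately, 2 without X- and Y-linked genes, and 0 to 4 when a pair or a library was left out. Over all regions the call count of 49 became 20 with total counts, 24 with the lowest-signal scaling, 85 with separate fits and 125 without X- and Y-linked genes, and 11 to 546 with libraries left out. Fits without a library and without its pair compare the same pairs, so they are not separate checks. Of the 49 calls 44 were higher in KO NPCs, and of the 24 with the lowest-signal scaling 16 were. The Srsf7 gene body, called in the blocked fit and not without the block, kept a log2 fold change of 0.44 to 0.62 throughout. The promoter to gene body ratio had 0 calls, and 1 with a mean of at least 50 counts, where 180 of 9223 genes were called, against 4 of 12096.

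Changes of sign occurred among regions that were not called. Without the replicate block Srsf9 TES became -0.019 and the Srsf11 promoter -0.084. The Srsf11 promoter was -0.020 with DESeq2 and -0.051 with the deposited log2 values. Srsf10 TES was 0.027 in a separate fit. With the lowest-signal scaling, which moved the median of all gene bodies to -0.06, the TES regions of Srsf1, Srsf2, Srsf9 and Srsf11 were -0.030, -0.0086, -0.0021 and -0.020, the gene bodies of Srsf4 and Srsf11 -0.00053 and -0.013, and the Srsf11 promoter -0.0028. The cause was not tested.

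Leaving out pairs or libraries gave ranges of -0.043 to 0.074 (Srsf1 TES), -0.095 to 0.14 (Srsf2 TES), -0.35 to 0.091 (Srsf4 TES), -0.015 to 0.27 (Srsf5 TES), -0.14 to 0.19 (Srsf9 TES), -0.18 to 0.013 (Srsf10 TES) and -0.014 to 0.11 (Srsf11 TES). They were -0.019 to 0.19 for the Srsf3 gene body and -0.23 to 0.0061, -0.085 to 0.24 and -0.15 to 0.24 for the promoters of Srsf9, Srsf10 and Srsf11. The promoter to gene body ratio ranged from -0.24 to 0.0075 for Srsf10 and from -0.32 to 0.19 for Srsf11, and the TES to gene body ratio from -0.38 to 0.057 for Srsf4, -0.46 to 0.0049 for Srsf7 and -0.049 to 0.051 for Srsf11. The median over SR gene bodies lay between 0.12 and 0.24 under all alternatives, that over SR promoters between -0.17 and -0.02, and that over SR TES regions between -0.01 and 0.12, the highest in separate fits.

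The median SE was 0.10 at SR promoters, 0.09 at SR gene bodies and 0.14 at SR TES regions, with 3 samples per genotype.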
